A study of Mus musculus with 10 samples.

Results

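Mitochondrial ribosomal proteins were examined by RNA sequencing of mouse liver in 4 normal livers (NL), 3 tumours labelled c-MYC (c-MYC) and 3 tumours labelled c-MYC/FOXO1AAA. The genes were taken by symbol, as every entry that begins with Mrpl or Mrps and a digit, and 79 of 16697 gene entries met this rule. The rule uses no expression values, but it was chosen with earlier results of these data known. The tumours were raised by hydrodynamic tail vein injection, which drives plasmids into hepatocytes, and the Sleeping Beauty transposase inserted the transgenes into the genome. FOXO1AAA is a form of the transcription factor FOXO1 that AKT cannot phosphorylate and so cannot inactivate. The c-MYC tumours carried the empty vector pT3 in its place. The sources differ on whether MCL1, an inhibitor of apoptosis, was given with c-MYC: the sample labels and RNA methods do not name it, while the design text of the series and a description of the pT3 control do. The plasmid list of the study gives c-MYC with FOXO1AAA or with pT3 for this experiment, and no MCL1 in either. The mouse Mcl1 entry measured 195 ± 10.5 FPKM in NL, 244 ± 8.72 in c-MYC and 158 ± 3.91 in c-MYC/FOXO1AAA. Whether transgene reads count towards this entry is not stated. If the tumours differed in MCL1, that difference cannot be told apart from FOXO1AAA. The study used these libraries to ask how active FOXO1 alters c-MYC tumours. All samples carry the genotype label WT. Their strain label is C57BL/6, while the extraction notes and the methods of the study name FVB and FVB/N. No ages were found for the single libraries, and the transgenes were delivered to hepatocytes of a liver that kept its other cells, with tumours collected at a high burden. The methods count the tumour samples as injected mice and the normal samples as livers, while the labels name no single animals, so the p-values measure only the spread between these libraries. A value after ± is the SD over the 4 NL, 3 c-MYC or 3 c-MYC/FOXO1AAA libraries unless it is marked SE, the standard error of a log2 fold change.

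Mitochondrial ribosomes translate the few mRNAs that mitochondrial DNA encodes, all for membrane proteins of oxidative phosphorylation. Their rRNAs are mitochondrial, but every ribosomal protein is encoded in the nucleus, made by cytosolic ribosomes and imported. The large subunit forms peptide bonds, and the small subunit binds mRNA and decodes it. Part of the proteins have counterparts in bacterial ribosomes and part arose with mitochondria. Liver is rich in mitochondria, and MYC is known to drive genes of ribosome production and of mitochondrial biogenesis.

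Of the 79 entries, 50 encode large subunit proteins and 26 small subunit proteins. Mrps30 and Mrps18a were placed in the large subunit, where their proteins sit despite the symbols, and classes follow the unified ribosomal protein names. Among large subunit genes 30 have bacterial counterparts and 20 are specific to mitochondria, and among small subunit genes the numbers are 16 and 10. The other 3 entries are Mrps36, whose protein belongs to the 2-oxoglutarate dehydrogenase complex, and the pseudogenes Mrpl23-ps1 and Mrpl48-ps. All 79 passed the filter, an FPKM of 1 or more in 3 or more libraries, with 25 to 6172 reads for a gene in a library. FPKM are fragment counts divided by transcript length and library size. Here they include a prior count of 2 reads on average, and they were scaled by the authors with a factor per library.

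That factor bears on every comparison with NL. It lay between 0.649 and 0.684 in NL, between 1.256 and 1.295 in c-MYC and between 1.454 and 1.502 in c-MYC/FOXO1AAA. Libraries rescaled to the same FPKM total moved the median log2 fold change of all tested genes from 0.08 to 1.01 for c-MYC against NL, from 0.03 to 0.20 between the tumours and from 0.21 to 1.31 for c-MYC/FOXO1AAA against NL. Differences are therefore given on the deposited scale and read against the median of all tested genes. The libraries held 13.12 M to 20.55 M reads in listed genes (M, mega). Foxo1 measured 7.14 ± 0.532 FPKM in NL and 5.63 ± 0.721 in the c-MYC tumours, against 83.1 ± 12.8 with FOXO1AAA. The mouse Myc entry was at 11.2 ± 8.17 FPKM in NL, 0.771 ± 0.254 in the c-MYC tumours and 0.983 ± 0.118 with FOXO1AAA, so it was lower in the libraries labelled with c-MYC. It is not stated whether transgene reads count towards it. The 7 hepatocyte markers in the table summed to 79800 to 89600 FPKM in NL, 3300 to 5170 in c-MYC and 868 to 1550 in c-MYC/FOXO1AAA, and the 6 proliferation markers to 4.65 to 27.6, 329 to 387 and 247 to 275. In bulk tissue, fewer cells of a type and less RNA per cell cannot be told apart.

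In c-MYC tumours a minority of mitoribosomal protein genes stood above normal liver beyond 1.5-fold, led by Mrpl50, Mrpl19 and Mrpl3. Above 1.5-fold, 7 of 79 genes rose, where 24.5% of the 14017 tested genes did, and 1 fell, where 23.6% of tested genes did. Their share of calls lay below the background in both directions. Without a fold-change threshold 38 were higher and 13 lower, beside 39.1% and 35.3% of tested genes. The median log2 fold change of the 79 genes was 0.27, beside 0.08 over all tested genes, and 53 of 79 values were positive. On the scale of equal FPKM totals 58 were higher and 0 lower beyond 1.5-fold, beside 50.4% and 13.5% of tested genes, and 78 of 79 values were positive, with a median of 1.20 against 1.01.

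Mrpl50, a mitochondria-specific protein of the large subunit, had the largest difference. The gene lies at chr4:49512596-49521093 on the minus strand (GRCm38). It measured 30.2, 20.3, 26.1 and 29.3 FPKM in NL 1 to 4, 79.9, 85.7 and 82.6 in c-MYC 1 to 3, and 27.1, 25.9 and 34.6 in c-MYC/FOXO1AAA 1 to 3. The c-MYC libraries stood apart from all others, and those of NL and c-MYC/FOXO1AAA overlapped. The level was 3.16-fold higher in c-MYC than NL (log2 fold change 1.66 ± 0.15 SE, limma adjusted p = 5.44e-05).

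Mrpl19, a counterpart of the bacterial protein L19 at the junction of the subunits, was the least abundant member in NL. It measured 3.63, 2.38, 2.54 and 2.63 FPKM in NL, 8.03, 7.77 and 8.17 in c-MYC, and 7.21, 7.80 and 8.23 in c-MYC/FOXO1AAA. Both kinds of tumour lay above NL and overlapped each other. The difference between c-MYC and NL was 1.54 ± 0.15 (log2, SE, limma adjusted p = 0.00018). Mrpl3, whose bacterial counterpart reaches towards the peptidyl transferase centre, behaved likewise. It measured 9.17, 6.79, 7.69 and 8.19 FPKM in NL, 17.7, 19.6 and 20.4 in c-MYC, and 19.6, 20.3 and 21.2 in c-MYC/FOXO1AAA, a log2 difference of 1.28 ± 0.11 (SE, limma adjusted p = 0.000199) for c-MYC versus NL. No c-MYC library reached down to an NL library for either gene.

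Small subunit genes specific to mitochondria made up 3 of the 7 calls. These were 3 of 10 genes in that class (30.0%), near the 24.5% of all tested genes. Mrps26 measured 11.8, 8.46, 11.6 and 10.3 FPKM in NL, 23.2, 21.6 and 25.9 in c-MYC, and 12.5, 13.3 and 17.4 in c-MYC/FOXO1AAA. All 3 groups were separate, with c-MYC highest, and the log2 difference of c-MYC from NL was 1.17 ± 0.15 (SE, limma adjusted p = 0.00413). Mrps22 measured 19.8, 18.6, 24.7 and 17.8 FPKM in NL, 40.6, 37.3 and 40.0 in c-MYC, and 19.8, 20.2 and 24.1 in c-MYC/FOXO1AAA. It was 1.96-fold higher in c-MYC than NL (log2 0.97 ± 0.13 SE, limma adjusted p = 0.0137), while c-MYC/FOXO1AAA lay inside the range of NL. Mrps25 measured 3.82, 2.90, 4.49 and 3.25 FPKM in NL, 8.83, 7.09 and 7.5 in c-MYC and 4.46, 4.22 and 6.49 in c-MYC/FOXO1AAA. Its difference, 1.12 ± 0.20 (log2, SE, limma adjusted p = 0.0228), was lost in 6 of 23 alternative settings. Mrps30, a large subunit protein despite its symbol, completed the list. It measured 11.2, 7.42, 7.23 and 9.67 FPKM in NL, 19.2, 16.4 and 18.4 in c-MYC, and 11.2, 10.9 and 15.2 in c-MYC/FOXO1AAA, and the c-MYC libraries stood above all others (log2 1.04 ± 0.18 SE, limma adjusted p = 0.0303), a call lost in 5 of 23 settings.

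Mrpl14 was the single gene that fell beyond 1.5-fold. It encodes the counterpart of bacterial L14, on the face of the large subunit that meets the small subunit, and was the most abundant member in NL. It measured 229, 223, 223 and 212 FPKM in NL, 91.3, 68.8 and 86.0 in c-MYC, and 47.4, 55.0 and 69.3 in c-MYC/FOXO1AAA. Every tumour library lay far below every NL library. The level in c-MYC was 0.368 of that in NL (log2 -1.44 ± 0.14 SE, limma adjusted p = 0.000157). At equal FPKM totals the log2 difference was -0.52 and was not called. An exon of Tmem63b overlaps Mrpl14 on the opposite strand, and Tmem63b measured 182 FPKM ± 11.9 in NL, 78.0 ± 8.78 in c-MYC and 65.4 ± 5.12 in c-MYC/FOXO1AAA. Whether counting used strand is not given in the sources used here, so reads of the pair cannot be told apart.

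**Figure D1:**
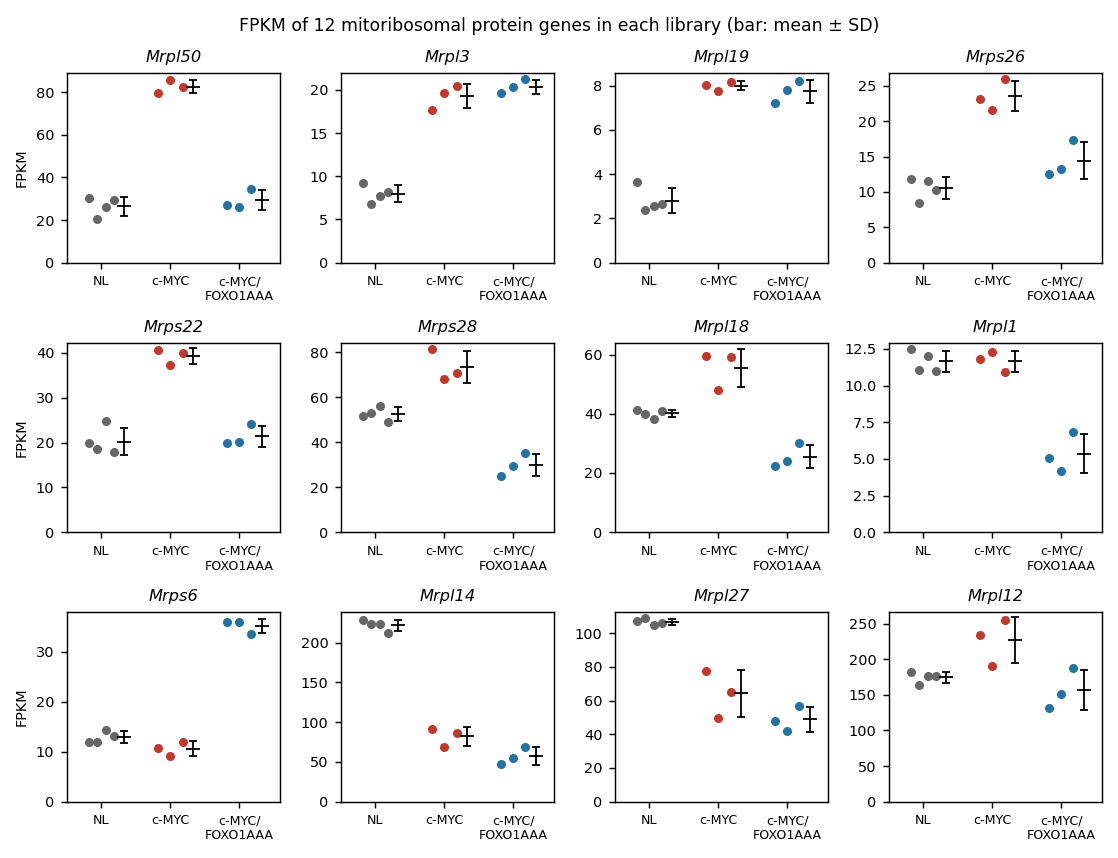
FPKM of 12 mitoribosomal protein genes (y axes, each from 0) in the 10 libraries by group (x axis), a point per library, with the mean ± SD beside each group. Mrpl50 and Mrps22 are high in c-MYC only among the 3 groups, Mrpl3 and Mrpl19 are high in both tumours, Mrps6 in c-MYC/FOXO1AAA, and Mrpl14 and Mrpl27 are highest in NL.

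In tumours with FOXO1AAA many members stood below their level in c-MYC tumours by a modest amount, and Mrps6 stood above it. Above 1.5-fold, 8 of 79 genes were lower with FOXO1AAA, where 12.7% of tested genes were, and 1 was higher, where 15.9% were. With no fold-change threshold 45 were lower and 1 higher, beside 26.4% and 28.4% of tested genes. The median log2 fold change was -0.47, beside 0.03 over all tested genes, and 71 of 79 values were negative. At equal FPKM totals 4 were lower and 1 higher beyond 1.5-fold, beside 10.6% and 18.5% of tested genes, and the median was -0.30 against 0.20. This comparison shares its 3 c-MYC libraries with c-MYC versus NL, so a high value in a c-MYC library raises the one difference and lowers the other. Leaving out c-MYC 1 left 5 genes lower, and so did leaving out c-MYC/FOXO1AAA 2.

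Mrps6, a counterpart of bacterial S6 in the platform of the small subunit, moved against the others. It lies at chr16:92058270-92112227 on the plus strand (GRCm38). Its level was 11.9, 11.9, 14.4 and 13.2 FPKM in NL, 10.8, 9.05 and 12 in c-MYC, and 35.9, 36.0 and 33.6 in c-MYC/FOXO1AAA. The libraries with FOXO1AAA stood apart, and NL and c-MYC overlapped. The level was 3.32-fold that of c-MYC (log2 1.73 ± 0.13 SE, limma adjusted p = 1.93e-05), and the call held in 23 of 23 alternative settings. Slc5a3, the myo-inositol transporter gene, shares exon sequence with Mrps6 on the same strand. Slc5a3 measured 0.885 FPKM ± 0.0648 in NL, 0.538 ± 0.0685 in c-MYC and 5.29 ± 1.49 in c-MYC/FOXO1AAA, a log2 difference of 3.27 ± 0.25 (SE, limma adjusted p = 6.22e-06) between the tumours. How shared reads were assigned is not stated, so the size of the Mrps6 difference is uncertain.

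Among the 8 genes that fell, Mrpl50 again had the largest difference (log2 -1.51 ± 0.16 SE, limma adjusted p = 0.000466), and its level in c-MYC/FOXO1AAA was 0.35 of that in c-MYC. Mrps28, a small subunit protein, measured 81.3, 68.1 and 70.6 FPKM in c-MYC and 25.1, 29.5 and 35.1 in c-MYC/FOXO1AAA, with 51.6, 53.1, 56.1 and 48.8 in NL. The 3 groups did not overlap, with NL in the middle, and the difference between the tumours was -1.3 ± 0.13 (log2, SE, limma adjusted p = 0.000637). Mrpl18, a counterpart of the bacterial protein that binds 5S rRNA, showed the same order. It measured 41.3, 40.0, 38.3 and 40.9 FPKM in NL, 59.5, 48.2 and 59.1 in c-MYC, and 22.5, 24.1 and 30.0 in c-MYC/FOXO1AAA (log2 -1.13 ± 0.13 SE, limma adjusted p = 0.00346). Mrpl18 overlaps Tcp1 on the opposite strand, and Tcp1 measured 203 FPKM ± 14.6 in c-MYC and 177 ± 3.05 in c-MYC/FOXO1AAA.

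Mrpl1, of the L1 stalk where spent tRNA leaves the ribosome, measured 12.5, 11.1, 12 and 11 FPKM in NL, 11.8, 12.3 and 10.9 in c-MYC, and 5.05, 4.18 and 6.81 in c-MYC/FOXO1AAA. NL and c-MYC overlapped and c-MYC/FOXO1AAA lay below both (log2 -1.15 ± 0.16 SE against c-MYC, limma adjusted p = 0.0122). Mrps31, specific to mitochondria, ran alike with 16.9, 13.9, 14.2 and 15.2 FPKM in NL, 17.3, 15.3 and 16.4 in c-MYC, and 9.15, 7.31 and 8.71 in c-MYC/FOXO1AAA (log2 -0.96 ± 0.12 SE against c-MYC, limma adjusted p = 0.0207). The call of Mrps31 held in 18 of 23 alternative settings.

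The other 3 calls were small subunit genes. Mrps2 and Mrps7 have bacterial counterparts, and Mrps34 is specific to mitochondria. Mrps2 measured 27.0, 21.8, 24.1 and 25.7 FPKM in NL, 41.5, 45.0 and 39.4 in c-MYC, and 23.3, 21.5 and 20.7 in c-MYC/FOXO1AAA (log2 -0.94 ± 0.11 SE between the tumours, limma adjusted p = 0.0143). NL and c-MYC/FOXO1AAA overlapped below c-MYC. Mrps34 measured 69.5, 56.9, 62.4 and 57.4 FPKM, then 78.1, 69.1 and 70.6, then 33.2, 40.7 and 39.5 in the same order (log2 -0.94 ± 0.12 SE, limma adjusted p = 0.0201), and c-MYC/FOXO1AAA lay below both other groups. The call of Mrps34 held in 17 of 23 alternative settings. Mrps7 measured 55.2 FPKM ± 5.86, 61.4 ± 4.03 and 33.5 ± 2.28, and its call (log2 -0.87 ± 0.11 SE, limma adjusted p = 0.0494) held in only 5 of 23 alternative settings. Of 26 small subunit genes 5 were called lower, and of 50 large subunit genes 3, beside 12.7% of tested genes. The median log2 fold change was -0.52 over the small and -0.43 over the large subunit genes. At equal FPKM totals 1 small and 3 large subunit genes were lower beyond 1.5-fold, beside 10.6% of tested genes, so the order of the counts rested on the scale.

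Markers of cells other than hepatocytes also differed between the tumours. The 6 stellate and fibroblast markers summed to 10.6 to 34.0 FPKM in c-MYC and 354 to 446 in c-MYC/FOXO1AAA, and 4 of 6 were called higher. The 6 skeletal muscle markers summed to 0.757 to 1.39 FPKM in c-MYC and 120 to 152 in c-MYC/FOXO1AAA, with 2.04 to 3.12 in NL, and all 5 tested were called higher. Desmin (Des) is in both lists. The 6 Kupffer cell and macrophage markers summed to 95.5 to 137 FPKM in c-MYC and 46.1 to 78.4 in c-MYC/FOXO1AAA, with 1 called higher and 1 lower. Their part in the values of the members was not tested.

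Read together, 29 of 79 genes were higher in c-MYC than NL and lower again with FOXO1AAA when no fold-change threshold was set, beside 10.6% of the 14017 tested genes, and sharing the c-MYC libraries favours this pattern for any gene. For 22 of these 29 no difference from NL was then called in c-MYC/FOXO1AAA on the deposited scale, without a threshold either, a pattern that 4.47% of tested genes showed. Mrpl14 and Mrps21 were lower at both steps.

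Tumours with FOXO1AAA differed from normal liver in both directions. Above 1.5-fold, 3 of 79 genes were higher, where 31.2% of tested genes were, and 8 were lower, where 26.6% were. With no fold-change threshold 10 were higher and 32 lower, beside 44.4% and 36.0% of tested genes. The median log2 fold change was -0.18, beside 0.21 over all tested genes. The direction rested on the scale: at equal FPKM totals 47 were higher and 1 lower beyond 1.5-fold, beside 58.0% and 15.0% of tested genes, and the median was 0.92 against 1.31. The median of the members lay below that of all tested genes, a gap that this rescaling cannot change, since it shifts every gene of a library alike. Leaving out c-MYC/FOXO1AAA 2 left 5 genes lower.

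The 3 higher genes were Mrpl19, at log2 1.49 ± 0.15 (SE, limma adjusted p = 0.000193), Mrps6, at 1.45 ± 0.12 (SE, limma adjusted p = 3.22e-05), and Mrpl3, at 1.37 ± 0.11 (SE, limma adjusted p = 6.09e-05). Mrpl14 was lowest relative to NL (log2 -1.97 ± 0.14 SE, limma adjusted p = 2.85e-06) and stayed called at equal FPKM totals. Mrpl27, a counterpart of bacterial L27 next to the peptidyl transferase centre, measured 107, 109, 105 and 106 FPKM in NL, 77.6, 49.9 and 65.2 in c-MYC, and 48.0, 42 and 56.6 in c-MYC/FOXO1AAA (log2 -1.14 ± 0.15 SE against NL, limma adjusted p = 0.00356). Both tumours lay below NL and overlapped each other. Mrps21, a counterpart of bacterial S21, measured 122, 132, 123 and 120 FPKM in NL, 91.7, 70.1 and 80.9 in c-MYC, and 53.3, 63.2 and 73.9 in c-MYC/FOXO1AAA (log2 -0.98 ± 0.13 SE for the last against NL, limma adjusted p = 0.00949). The others were Mrpl1 (log2 -1.15), Mrpl55 (-0.98), Mrpl51 (-0.89) and Mrps31 (-0.85), and the pseudogene Mrpl23-ps1 (-1.45). Of 23 alternative settings, the call held in 20 for Mrpl1, 19 for Mrpl55, 15 for Mrpl51 and 14 for Mrps31. For Mrpl23-ps1 it held in 13 of 22. At equal FPKM totals, Mrpl51, Mrpl55, Mrps21 and Mrps31 turned to small positive values that were not called. Mrpl23-ps1 measured 5.04, 4.78, 9.39 and 9.23 FPKM in NL, 6.69, 2.49 and 3.86 in c-MYC, and 2.23, 2.22 and 3.02 in c-MYC/FOXO1AAA, and is uncertain, because its reads may be split with the parent gene Mrpl23. Mrpl48-ps (14.7 ± 1.92 FPKM in NL, 9.16 ± 1.33 with FOXO1AAA) is uncertain in the same way.

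Other members at the ends of each order were not called in that comparison. Mrpl55 and Mrps16, both with bacterial counterparts, and Mrps33, specific to mitochondria, were among the lowest for c-MYC against NL. Mrpl55 measured 48.5, 43.0, 44.9 and 41.2 FPKM in NL, 28.9, 22.7 and 28.6 in c-MYC, and 22.5, 21.8 and 23.3 in c-MYC/FOXO1AAA. Mrps16, like Mrpl55, lay lower in tumours, and measured 16.6, 16.5, 20.9 and 18 FPKM in NL, 13.1, 9.25 and 11.6 in c-MYC, and 11.3, 11.4 and 13.7 in c-MYC/FOXO1AAA. Mrps33 measured 22.1, 22.9, 23.4 and 23.8 FPKM in NL, 17.3, 14.4 and 13.7 in c-MYC, and 15.1, 17.8 and 20.3 in c-MYC/FOXO1AAA. For each of them every tumour library lay below every NL library, and the tumours overlapped. Mrpl34, a large subunit protein with a bacterial counterpart, lay the other way, with 114, 94.0, 117 and 98.0 FPKM in NL, 173, 135 and 178 in c-MYC, and 139, 164 and 175 in c-MYC/FOXO1AAA (log2 0.61 and 0.59 against NL, neither called).

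After Mrps6, the highest differences between the tumours were small and not called. All belonged to genes with bacterial counterparts but Mrps33 (log2 0.22). Mrpl36 (log2 0.21) measured 58.5, 57.4, 67.7 and 54.4 FPKM in NL, 83.1, 57.7 and 77.5 in c-MYC, and 80.0, 84.0 and 85.8 in c-MYC/FOXO1AAA. Mrpl33 (log2 0.17) measured 75, 48.9, 82.3 and 54.8 FPKM in NL, 75.7, 55.3 and 83.0 in c-MYC, and 81.7, 74.5 and 82.1 in c-MYC/FOXO1AAA. The tumours overlapped for both genes. Mrps10 (log2 0.17) measured 35.9, 28.3, 33.5 and 33.3 FPKM in NL, 26.8, 21.6 and 27.8 in c-MYC, and 31.3, 26.6 and 27.5 in c-MYC/FOXO1AAA. Mrpl32 (log2 0.16) measured 9.02, 9.37, 10.1 and 8.84 FPKM in NL, 7.36, 5.91 and 7.3 in c-MYC, and 7.38, 7.52 and 7.93 in c-MYC/FOXO1AAA. For Mrpl32 alone of these 4 the tumours did not overlap.

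**Figure D2:**
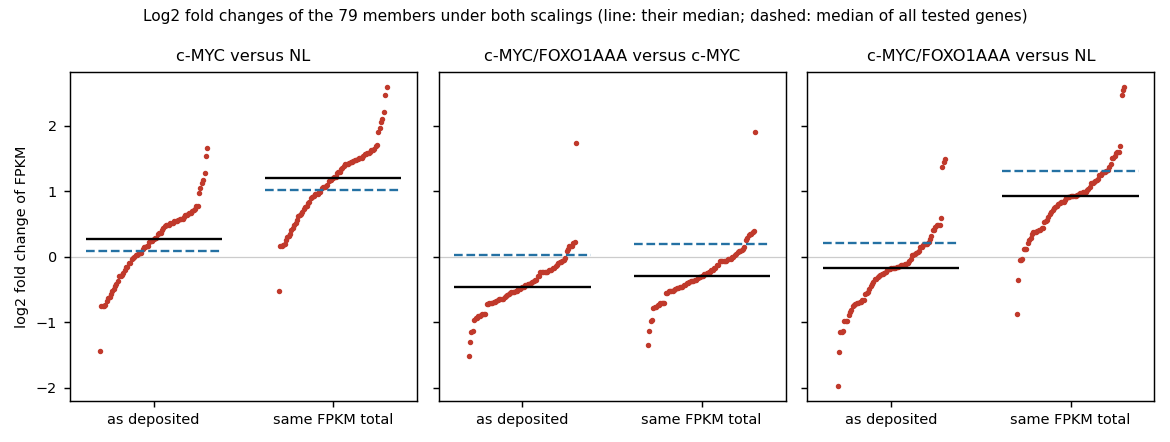
Log2 fold changes of the 79 genes (y axis, a point per gene in ascending order) on the deposited scale and with the same FPKM total, for the 3 comparisons. Black lines are the medians of the 79 genes and dashed lines those of all tested genes. Rescaling moves the medians for c-MYC versus NL from 0.27 to 1.20 and for c-MYC/FOXO1AAA versus NL from -0.18 to 0.92. The gap to the dashed line stays alike by construction.

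Members with and without bacterial counterparts were set side by side as a description. For c-MYC versus NL the median log2 fold change was 0.19 over 46 genes with a bacterial counterpart and 0.50 over 30 genes specific to mitochondria. Beyond 1.5-fold, 2 of the 46 and 5 of the 30 were higher, both below the 24.5% of all tested genes. Between the tumours the medians were -0.37 and -0.62, and without a fold-change threshold 22 of 46 and 22 of 30 were lower, beside 26.4% of tested genes. For c-MYC/FOXO1AAA versus NL they were -0.20 and -0.13. Each class was spread widely, from -0.23 to 0.53 and from 0.03 to 0.68 between its quartiles for c-MYC against NL.

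**Figure D3:**
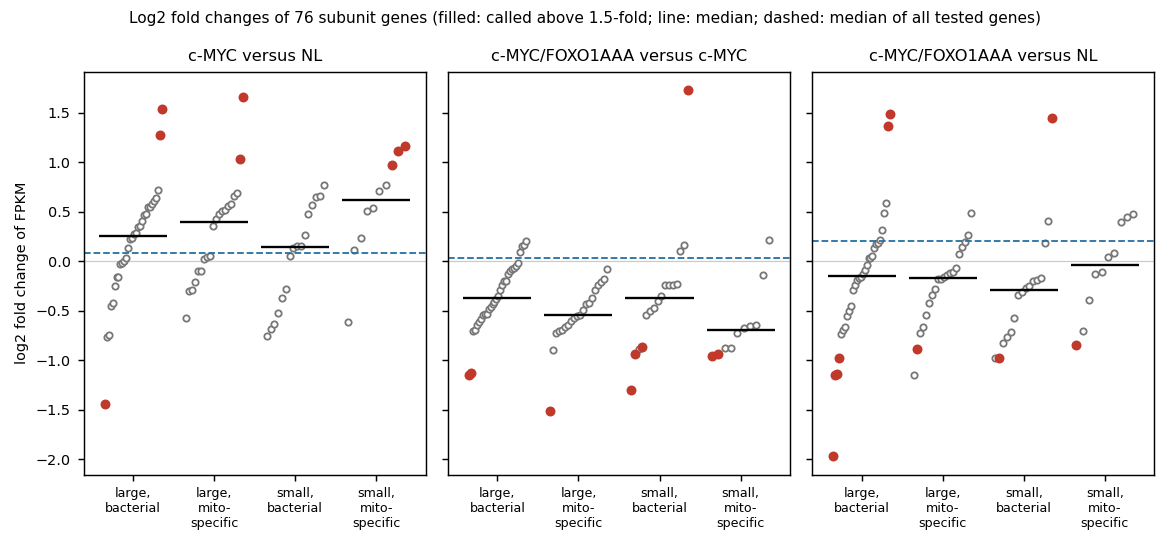
Log2 fold changes of FPKM (y axis) of the 76 subunit genes by subunit and origin (x axis) in the 3 comparisons, a point per gene. Filled points were called above 1.5-fold, black lines are class medians and dashed lines the median of all tested genes. For c-MYC versus NL the median is 0.15 in small subunit genes with a bacterial counterpart and 0.62 in those specific to mitochondria.

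Among the members, transcript length moved with the difference of c-MYC from NL. The length behind the FPKM ran from 256 to 6073 bp, with a median of 1122. For c-MYC versus NL the median log2 fold change was 0.05 over the 40 shorter members and 0.47 over the 39 longer ones. Higher calls were 0 of 40 shorter and 7 of 39 longer members. Beside them stood 942 of 4087 shorter and 2493 of 9930 longer tested genes, a larger share in both ranges. Over all tested genes the medians in the same length ranges were 0.05 and 0.09. Between the tumours they were -0.32 in shorter and -0.54 in longer members, beside 0.02 and 0.03 over all tested genes. For c-MYC/FOXO1AAA versus NL they were -0.27 and -0.16 in the members, beside 0.14 and 0.23. The part of length in these values was not tested.

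The members also moved together from library to library. Among c-MYC libraries, c-MYC 2 had the lowest value for 62 of 79 members, beside 35.5% of tested genes. Among c-MYC/FOXO1AAA libraries, c-MYC/FOXO1AAA 3 had the highest value for 65 of 79, beside 34.5% of tested genes. In NL, NL 1 was highest for 42 of 79 members, beside 45.3% of tested genes. Without c-MYC 2 the members higher in c-MYC than NL were 8, and without c-MYC/FOXO1AAA 3 the members lower than in c-MYC were 10. Mrpl52, specific to mitochondria, measured 161, 143, 174 and 151 FPKM in NL, 113, 98.2 and 105 in c-MYC, and 46.8, 61.0 and 125 in c-MYC/FOXO1AAA, where the third library stood above c-MYC and the others below it.

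Summed over all subunit genes, the members took 0.342% ± 0.0137 of the FPKM total in NL, 0.713% ± 0.053 in c-MYC and 0.597% ± 0.0368 in c-MYC/FOXO1AAA. The 3 groups did not overlap. At equal FPKM totals the median log2 fold change of all tested genes against NL was 1.01 in c-MYC and 1.31 in c-MYC/FOXO1AAA. A typical gene thus also took a larger share in tumours, and the rise is not particular to the members. In FPKM as deposited the sums were 3470 to 3880 in NL, 3590 to 4400 in c-MYC and 2750 to 3370 in c-MYC/FOXO1AAA, where NL and c-MYC overlapped. Of the reads they took 0.269% ± 0.0119, 0.605% ± 0.0593 and 0.500% ± 0.0425.

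Ratios within a library do not depend on the scaling. The large subunit sum was 2.83 ± 0.0557 times the small subunit sum in NL, 2.76 ± 0.0764 in c-MYC and 2.94 ± 0.0529 in c-MYC/FOXO1AAA, and NL overlapped both. The sum of cytosolic ribosomal protein genes, the parts of the ribosomes outside mitochondria, was 9.56 ± 0.590 times the mitochondrial sum in NL, 20.1 ± 0.681 in c-MYC and 30.5 ± 0.115 in c-MYC/FOXO1AAA. By library it was 10.2, 8.79, 9.75 and 9.49 in NL, 20.9, 19.6 and 19.9 in c-MYC, and 30.4, 30.4 and 30.6 in c-MYC/FOXO1AAA. No library of any group fell within the range of another group.

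**Figure D4:**
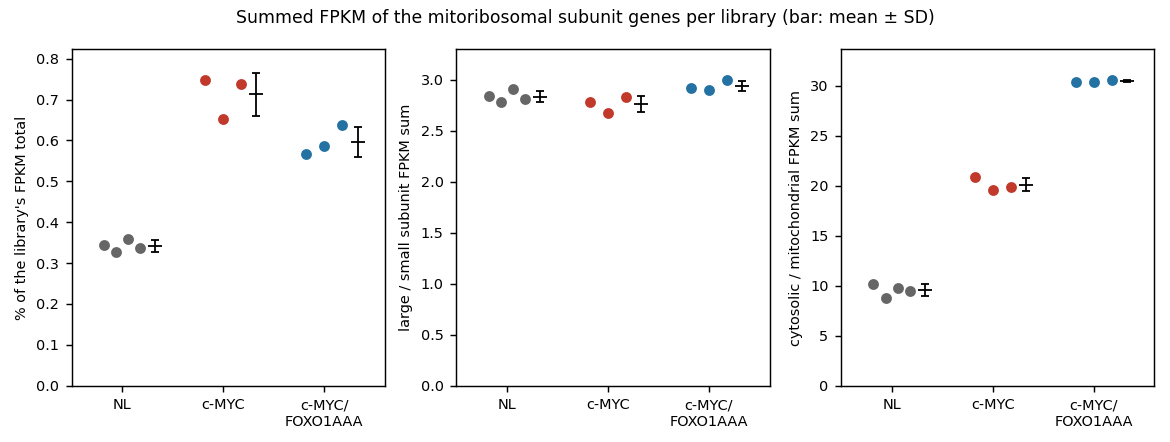
Sums over the mitoribosomal subunit genes in each library (a point each, with mean ± SD) by group (x axis): their percent of the FPKM total, the ratio of large to small subunit sums, and the ratio of cytosolic to mitochondrial ribosomal protein sums. The last ratio lies between 8.79 and 10.2 in NL, 19.6 and 20.9 in c-MYC and 30.4 and 30.6 in c-MYC/FOXO1AAA.

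Members with roles beyond the core of the ribosome were also followed. Mrpl12, of the stalk that recruits translation factors and a partner of the mitochondrial RNA polymerase, measured 182, 164, 177 and 176 FPKM in NL, 234, 191 and 255 in c-MYC, and 132, 151 and 187 in c-MYC/FOXO1AAA. Mrpl44, which resembles an RNase III, measured 24.7, 18.5, 21.9 and 21.1 FPKM in NL, 28.2, 27.4 and 30.9 in c-MYC, and 19.8, 20.8 and 19 in c-MYC/FOXO1AAA. For both genes c-MYC lay above the other groups. Mrpl58, a release factor that rescues stalled ribosomes, measured 75.3, 69.1, 71.3 and 64.1 FPKM in NL, 65.7, 49.4 and 56.0 in c-MYC, and 35.7, 43.2 and 49.4 in c-MYC/FOXO1AAA. Mrps36, outside the ribosome, measured 29.4, 31.8, 22.5 and 18.4 FPKM in NL, 43, 36.2 and 37.8 in c-MYC, and 17.3, 20.0 and 25.6 in c-MYC/FOXO1AAA, and c-MYC stood apart. The 3 relatives of bacterial S18 differed among themselves. Mrps18b measured 19.9, 14.3, 16.9 and 14.8 FPKM in NL, 25.5, 26.9 and 31.2 in c-MYC, and 15.9, 16.2 and 13.5 in c-MYC/FOXO1AAA, with c-MYC above both other groups. Mrps18c measured 49.3, 55.2, 66.1 and 61.0 FPKM in NL, 39.2, 32.2 and 31.9 in c-MYC, and 23.0, 26.1 and 41.3 in c-MYC/FOXO1AAA, with NL above both tumours. Mrps18a, in the large subunit, measured 45.4, 43.5, 51.7 and 41.9 FPKM in NL, 44.3, 43.8 and 50.8 in c-MYC, and 33.3, 33.2 and 41.6 in c-MYC/FOXO1AAA, with the last lowest. None of these 7 genes was called beyond 1.5-fold in any of the 3 comparisons.

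Counts of other genes of the pathway stand beside the same backgrounds beyond 1.5-fold, 24.5% higher and 23.6% lower among all tested genes for c-MYC against NL, 15.9% and 12.7% between the tumours, and 31.2% and 26.6% for c-MYC/FOXO1AAA against NL. Of 5 mitoribosomal proteins that carry other symbols, 3 were higher in c-MYC than NL and 3 were lower with FOXO1AAA than without it, beyond 1.5-fold. Ptcd3, a small subunit protein with RNA-binding repeats, measured 18.1, 13.5, 17.4 and 14.6 FPKM in NL, 44.9, 54.7 and 52.9 in c-MYC, and 23.4, 24.6 and 26.3 in c-MYC/FOXO1AAA. The groups were separate, and both differences were called, c-MYC against NL at log2 1.68 ± 0.12 (SE, limma adjusted p = 1.2e-05) and the tumours at -1.03 ± 0.13 (SE, limma adjusted p = 0.0136). Dap3, a GTP-binding protein of the small subunit, measured 93.9 FPKM ± 6.41, 171 ± 16.7 and 91.1 ± 6.70, with both differences called. Gadd45gip1, at the exit of the large subunit tunnel, rose in c-MYC (log2 1.16), and Aurkaip1 fell with FOXO1AAA (log2 -0.92).

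Of 25 genes that assemble the mitoribosome or modify its rRNA, 6 rose and 0 fell in c-MYC against NL, a share near the 24.5% of all tested genes, with a median of 0.43. Noa1, a GTPase of small subunit assembly, measured 12, 9.46, 11.1 and 12 FPKM in NL, 51.3, 51.3 and 49.7 in c-MYC, and 36.8, 37.9 and 32.7 in c-MYC/FOXO1AAA. Both tumours lay well above NL (log2 2.19 ± 0.11 SE for c-MYC, limma adjusted p = 1.99e-07). Rpusd4, a pseudouridine synthase acting on mitochondrial rRNA, rose by 1.90 on the log2 scale, and the lowest of the 6 calls were Fastkd2 (1.14) and the rRNA methyltransferase Mrm3 (1.12). Between the tumours 0 were higher and 1 was lower, Nsun4 (log2 -1.09 ± 0.13 SE, limma adjusted p = 0.007), a methyltransferase that joins subunit assembly. Against NL, 6 rose and 1 fell in c-MYC/FOXO1AAA.

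Of 17 mitochondrial tRNA synthetases, which load the tRNAs the ribosome uses, 8 rose and 1 fell in c-MYC against NL (median 0.91). Mars2, for methionine, measured 0.563 FPKM ± 0.131 in NL, 5.01 ± 0.536 in c-MYC and 2.85 ± 0.298 in c-MYC/FOXO1AAA (log2 3.18 ± 0.24 SE, limma adjusted p = 2.38e-06). Pars2, for proline, rose by 1.93 on the log2 scale, and Fars2, for phenylalanine, fell by 0.97. Tars2 was called at 1.08. Between the tumours only Cars2 passed, with 0 higher and 1 lower of 17. Cars2, for cysteine, measured 20.5 FPKM ± 1.93, 43.4 ± 1.33 and 17.6 ± 0.504 in NL, c-MYC and c-MYC/FOXO1AAA (log2 -1.3 ± 0.10 SE between the tumours, limma adjusted p = 0.000121). Against NL, 4 rose and 1 fell in c-MYC/FOXO1AAA.

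Of 15 translation factors of mitochondria tested, 1 was higher in c-MYC than NL, the elongation factor Tsfm (log2 0.89 ± 0.13 SE, limma adjusted p = 0.0499), and 0 were lower. Between the tumours 1 fell, Lrpprc, which protects mitochondrial mRNAs. Lrpprc measured 48.9, 41.1, 44.8 and 42 FPKM in NL, 58.7, 75.3 and 54.2 in c-MYC, and 18.1, 20.2 and 26.0 in c-MYC/FOXO1AAA (log2 -1.55 ± 0.16 SE, limma adjusted p = 0.000331). The groups were separate. Against NL, 1 was higher and 4 were lower in c-MYC/FOXO1AAA, from Guf1 (log2 1.04) to Mtif3 (log2 -1.47).

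Of 8 genes of mitochondrial DNA transcription and replication, the helicase Twnk was higher in c-MYC than NL (log2 1.14), and Tfam, which packages mitochondrial DNA, was lower in c-MYC/FOXO1AAA than c-MYC (log2 -0.91 ± 0.13 SE, limma adjusted p = 0.049). Tfam measured 80.2 FPKM ± 7.59 in NL, 128 ± 12.3 in c-MYC and 68.7 ± 9.04 in c-MYC/FOXO1AAA. Against NL, Twnk was higher (log2 1.07) and Polg2 lower (log2 -1.38) in c-MYC/FOXO1AAA. Of 8 nuclear regulators of mitochondrial genes, 3 rose and 1 fell in c-MYC against NL. The coactivator Pprc1 measured 4.56 FPKM ± 2.11 in NL and 25.5 ± 1.15 in c-MYC. Nrf1, a factor that binds promoters of mitochondrial genes, measured 4.30 FPKM ± 0.875, 10.5 ± 1.3 and 15.2 ± 1.88 in NL, c-MYC and c-MYC/FOXO1AAA (log2 1.31 ± 0.17 SE for c-MYC versus NL, limma adjusted p = 0.00231). Gabpb1, a subunit of an ETS factor, was called at 0.98. The coactivator Ppargc1a measured 2.09 to 2.84 FPKM in NL, 0.0352 to 0.207 in c-MYC and 0.238 to 0.381 in c-MYC/FOXO1AAA, and all 3 differences were called. Against NL the same counts, 3 higher and 1 lower, held in c-MYC/FOXO1AAA.

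Most calls against NL in these lists moved with the scale. At equal FPKM totals, 17 of 25 assembly genes, 13 of 17 tRNA synthetases and 7 of 15 translation factors were higher and 0 lower in c-MYC than NL. With FOXO1AAA 16, 12 and 5 were higher and 0 lower. Among all tested genes 50.4% were higher and 13.5% lower on that scale for c-MYC, and 58.0% and 15.0% with FOXO1AAA. Of the regulators, 1 was lower on that scale too in each kind of tumour. Between the tumours that scale left Lrpprc and Cars2 as the lower calls of their lists, and 0 of the 5 proteins with other symbols were called.

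The mRNAs that mitochondrial ribosomes translate were lower in tumours. Of 13 mitochondrially encoded mRNAs, 11 were lower and 0 higher in c-MYC than NL (median log2 -2.05), and 13 were lower in c-MYC/FOXO1AAA than NL (median -2.24). At equal FPKM totals 7 and 6 were lower, with medians of -1.12 and -1.15. Between the tumours limma called 0 (median -0.21), with 0 at an unadjusted p under 0.05 and 1 lower without a fold-change threshold. Their levels were noisy between libraries, as for mt-Atp6, which measured 426, 644, 407 and 999 FPKM in NL, 250, 63.8 and 63.5 in c-MYC, and 149, 42.1 and 75.5 in c-MYC/FOXO1AAA. The tumours lay below NL nonetheless (log2 -2.53 ± 0.56 SE for c-MYC, limma adjusted p = 0.00797). The others named by rule were mt-Co2 (log2 -2.71), mt-Nd5 (-1.78) and mt-Nd1 (-1.10). The library kit is labelled as capture of polyadenylated RNA or removal of rRNA, and it is not stated which was used for these libraries.

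Nuclear subunits of the respiratory chain, the partners of the encoded proteins, had a median log2 fold change of -0.59 for c-MYC versus NL, with 2 higher and 21 lower of 87. Between the tumours the median was -0.56, with 2 higher and 10 lower, and against NL c-MYC/FOXO1AAA stood at -1.22, with 4 higher and 63 lower. Uqcrq, of complex III, measured 556 FPKM ± 32.6 in NL, 156 ± 40.0 in c-MYC and 111 ± 25.6 in c-MYC/FOXO1AAA. At equal FPKM totals the counts against NL were 13 higher and 2 lower in c-MYC, beside 50.4% and 13.5% of tested genes. In c-MYC/FOXO1AAA they were 6 higher and 5 lower, beside 58.0% and 15.0%. The medians on that scale were 0.33 and -0.12, beside 1.01 and 1.31 over all tested genes, so only that of c-MYC turned positive. Of 14 import and mass markers 5 were higher and 0 lower in c-MYC than NL (median 0.61), among them the import receptors Tomm20 (log2 1.66) and Tomm22 (1.15), Timm50 (1.41) and the chaperonin Hspd1 (1.16). Between the tumours 0 were higher and 1 lower, the chaperone Hspa9 (log2 -0.91), and 2 were higher in c-MYC/FOXO1AAA than NL. Of 88 cytosolic ribosomal protein genes 61 rose and 0 fell in c-MYC against NL (median 1.20), from Rpl27 and Rpl27a (0.92 each) to Rps10 (2.40) and Rpl13a (2.87), 0 were called between the tumours by limma (median 0.16, 1 at an unadjusted p under 0.05), and 73 rose and 0 fell with FOXO1AAA against NL (median 1.37).

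**Figure D5:**
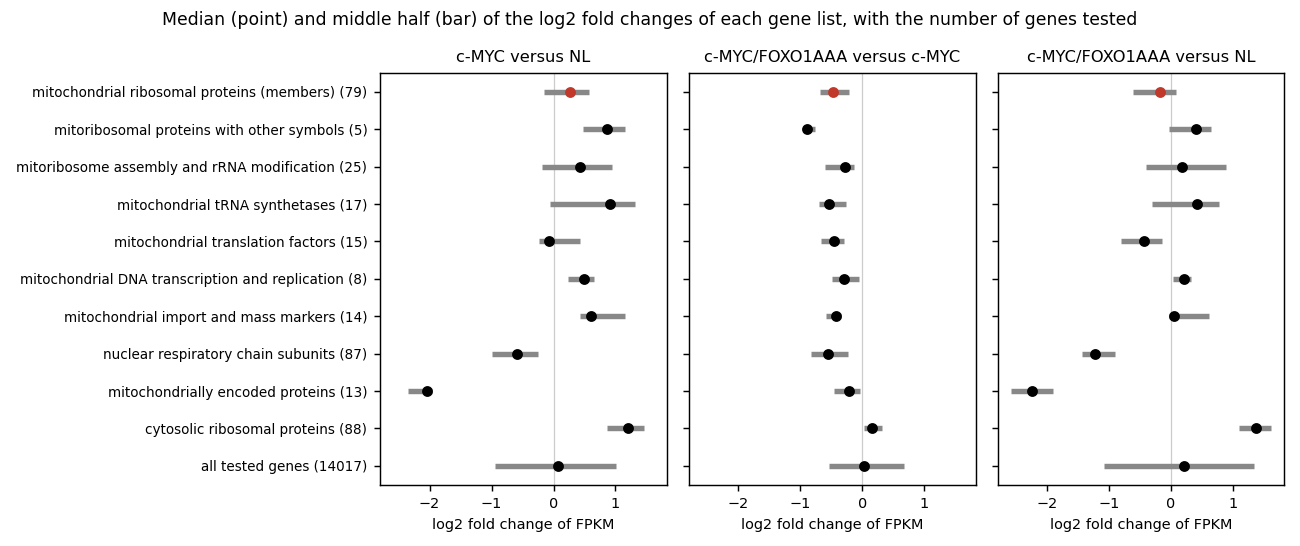
Median (point) and quartiles (bar) of the log2 fold change of FPKM (x axis) for the members (red) and each other gene list (y axis, with the number of genes tested) in the 3 comparisons. The members stand at 0.27, -0.47 and -0.18, cytosolic ribosomal proteins at 1.20, 0.16 and 1.37, and mitochondrially encoded mRNAs at -2.05, -0.21 and -2.24.

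The promoters of the members were searched for the letters that known regulators of mitochondrial genes bind. RefSeq gave a window of 250 bases before and 50 after the start (GRCm38.p6) for 68 of the 79 genes. The ETS motif CCGGAAG, which the NRF2 (GABP) factor binds, was found on either strand in 36.8% of the 68 members, in 9.93% of all 27025 genes with a window and in 19.6% of 10145 tested genes. The NRF1 motif GCATGCGC was found in 11.8% of members, 3.05% of all genes and 5.80% of tested genes. The E-box CACGTG, which MYC with MAX binds, was found in 7.35% of members, 8.09% of all genes and 11.8% of tested genes. CCAAT was found in 38.2% of members, 41.1% of all genes and 42.9% of tested genes, and the forkhead motif TGTTTAC in 2.94%, 4.05% and 3.33%. These are matches of letters and not binding sites, the windows of different motifs can overlap, and the expressed genes tested are the closer background.

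The 4 stretches of 250 bases before the start are shown, in lower case with the motif matches on either strand in capitals. Mrpl22 (chr11:58171414-58171663, plus strand) holds both an ETS and an NRF1 match, as do 4 of the 68 members. Mrps22 (chr9:98601680-98601929, minus strand) holds an ETS match close to the start. Mrpl3 (chr9:105053018-105053267, plus strand) holds 2 CCAAT matches and an ETS match, and Mrpl50 (chr4:49521084-49521333, minus strand) 2 CCAAT matches. The last 3 are members with called differences for c-MYC versus NL.
Mrpl22: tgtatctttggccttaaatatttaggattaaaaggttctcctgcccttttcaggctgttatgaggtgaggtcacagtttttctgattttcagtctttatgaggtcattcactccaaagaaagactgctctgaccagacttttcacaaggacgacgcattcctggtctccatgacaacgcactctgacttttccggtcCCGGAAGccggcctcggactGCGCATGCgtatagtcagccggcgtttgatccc
Mrps22: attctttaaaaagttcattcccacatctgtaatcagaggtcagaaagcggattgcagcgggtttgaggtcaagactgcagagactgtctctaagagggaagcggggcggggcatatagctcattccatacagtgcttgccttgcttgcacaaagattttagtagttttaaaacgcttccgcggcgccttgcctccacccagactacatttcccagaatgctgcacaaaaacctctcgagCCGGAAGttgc
Mrpl3: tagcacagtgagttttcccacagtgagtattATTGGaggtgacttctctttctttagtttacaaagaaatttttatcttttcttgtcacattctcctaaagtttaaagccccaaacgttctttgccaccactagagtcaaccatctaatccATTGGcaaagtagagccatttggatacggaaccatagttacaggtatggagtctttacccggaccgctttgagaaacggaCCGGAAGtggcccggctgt
Mrpl50: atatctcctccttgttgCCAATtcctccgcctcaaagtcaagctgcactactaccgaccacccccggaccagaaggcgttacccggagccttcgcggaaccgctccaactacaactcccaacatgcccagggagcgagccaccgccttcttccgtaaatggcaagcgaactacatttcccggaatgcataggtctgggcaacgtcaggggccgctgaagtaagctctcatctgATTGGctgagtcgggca

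The medians of members with and without a motif are given as a description. For c-MYC versus NL the median log2 fold change was 0.41 over members with the ETS motif and 0.27 over those without it, and 0.28 with and 0.28 without the NRF1 motif. With the E-box it was 0.28 over 5 genes and 0.27 over the others. With CCAAT it was 0.32 and without it 0.16. Between the tumours the medians were -0.38 with and -0.48 without the ETS motif, -0.34 and -0.48 for NRF1, -0.26 and -0.52 for CCAAT, and -0.20 and -0.49 for the E-box. For c-MYC/FOXO1AAA against NL they were 0.07 with and -0.18 without the E-box, and -0.04 and -0.21 for CCAAT. The forkhead motif was in 2 members only.

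Reads can be shared where genes overlap. Exons of 21 of the 79 members overlapped those of another gene in the table, and for 2 of them, Mrps6 with Slc5a3 and Mrps24 with Urgcp, the partner lay on the same strand. Called members with an opposite partner were Mrpl14, Mrpl18, Mrpl19, Mrpl27, Mrps25, Mrps34 and Mrps7. Eme1, which meets Mrpl27, measured 0.998 FPKM ± 0.461 in NL and 21.9 ± 1.63 in c-MYC, opposite in direction to Mrpl27. Gcfc2, which meets Mrpl19, measured 0.701 FPKM ± 0.0775 in NL and 1.63 ± 0.0888 in c-MYC, in the direction of Mrpl19. Nr2c2, which meets Mrps25, measured 3.12 FPKM ± 0.743 in NL and 3.15 ± 0.482 in c-MYC. Mif4gd and Gga3 both meet Mrps7 and were lower with FOXO1AAA, as Mrps7 was. Mif4gd measured 22.7 FPKM ± 2.92 in c-MYC and 9.59 ± 1.55 in c-MYC/FOXO1AAA, and Gga3 15.6 ± 1.11 and 8.51 ± 0.884. Mapk8ip3, which meets Mrps34, measured 9.39 FPKM ± 0.763 and 9.37 ± 1.35 in the same groups.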

How the data were processed

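RNA sequencing of mouse liver was available as a table of 10 libraries. The deposited values are log2 FPKM, made by the authors from reads counted by gene, converted to symbols and scaled in edgeR. The values show a prior count averaging 2 reads, in proportion to library size, added before the logarithm. GRCm38 and FastQC 0.11.7 are named in the submitters' processing notes, while the aligner, the counting tool and its use of strand are not given in the sources used here. Of 17069 entries, 372 without a symbol were left out. Reads were recovered as whole numbers (within 0.02) for all 16697 genes and served for depth only.

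Entries that reached an FPKM of 1 in 3 or more libraries were tested (14017). A model with a mean per group over all 10 libraries was fitted with limma 3.58.1 (R 4.3.3, statmod 1.5.0), and its treat function gave a 2-sided test against 1.5-fold with trend and robust estimation. Benjamini-Hochberg adjusted p under 0.05 was called. The log2 fold changes understate those of low genes. The fit was tested on simulated data. Members were found by symbol, gene positions are of GENCODE M21, and the promoter windows were matched by symbol. The members, lists and motifs were chosen with earlier results of these data known, and the class of Mrps18a was corrected to its unified name after its values were seen. Members were named by size of change (8 largest and smallest in the first 2 comparisons, 5 in the third), beside genes fixed by role, and list genes as the 2 highest and lowest called. Replicate numbers did not pair the libraries, since all correlations of same-numbered libraries were below 0.1. Alternatives changed the pseudocount, filter, scaling, threshold, variance estimate, samples and block.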

Additional observations from a re-analysis of the deposited data

Results flagged for a closer look

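In NL, the single group of 4, the lowest and highest library of each of the 79 genes were checked by the ratio of the gap to the range. 2 genes exceeded the 95% critical value of Dixon's test, where chance flags about 1 in 20 groups. Mrps11 was low in NL 2 (33.4 FPKM against 38.4 to 39.5 in the other 3 libraries, ratio 0.840). Mrpl47 was high in NL 1 (5.77 FPKM against 4.64 to 4.80, ratio 0.847). Neither gene was called in a comparison.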

How the results depend on the processing

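The counts of called members depended on the scale and the threshold more than on any library. With the same FPKM total, 58 members were higher and 0 lower for c-MYC versus NL (median 1.20), 4 were lower between the tumours (median -0.30), and 47 were higher and 1 lower for c-MYC/FOXO1AAA versus NL (median 0.92). There the called values of Mrpl51 (0.21), Mrpl55 (0.12), Mrps21 (0.12) and Mrps31 (0.25) turned positive, by the construction of the scale. With both the same FPKM total and no fold-change threshold, chosen after seeing the data, the counts were 72 higher, then 5 higher and 39 lower, then 69 higher and 1 lower. On that scale 50.4% and 58.0% of all tested genes were already higher than NL beyond 1.5-fold in c-MYC and c-MYC/FOXO1AAA. Quantile normalization gave 16 higher for c-MYC versus NL (median 0.47), 5 lower between the tumours, and 5 higher and 4 lower for c-MYC/FOXO1AAA versus NL (median 0.08). An equal median gave 14 lower in the last comparison. Without a fold-change threshold the counts were 38 higher and 13 lower, 45 lower, and 10 higher and 32 lower, and with a threshold of 2-fold 2 higher and 1 lower, 1 higher and 1 lower, and 3 higher and 1 lower. Shares of all tested genes are not given for quantile normalization, an equal median or the 2-fold threshold, so those counts show only how calls of members move. Apart from rescaling and thresholds, the cause was not tested.

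Leaving out each library in turn gave 5 to 8 higher and 1 lower for c-MYC versus NL (median 0.17 to 0.40), 1 higher and 5 to 10 lower between the tumours (median -0.55 to -0.37), and 3 higher and 5 to 11 lower for c-MYC/FOXO1AAA versus NL (median -0.26 to -0.15). With the replicate number as a block, 7 were higher and 1 lower, then 1 higher and 6 lower, then 3 higher and 6 lower. The numbers did not pair the libraries. Of 28 called differences of members, 8 kept their call in every alternative. The share of reads in place of FPKM gave 0.192% for the large and 0.0772% for the small subunit in NL, 0.427% for the large subunit in c-MYC, and 0.358% and 0.142% in c-MYC/FOXO1AAA. At 13.12 M to 20.55 M reads a library, members of low level such as Mrpl23-ps1 rest on as few as 25 reads.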

Other observations

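Markers of other cells also differed between the groups. Of 4 fetal liver and hepatic tumour markers, 3 were higher in c-MYC than NL, and their sum was 102 to 1600 FPKM in NL, 18900 to 22400 in c-MYC and 6960 to 9410 in c-MYC/FOXO1AAA. Erythroid markers summed to 1120 to 2200 FPKM in NL, 131 to 234 in c-MYC and 215 to 531 in c-MYC/FOXO1AAA, with 4 of 4 lower in both tumours than in NL. Endothelial markers summed to 45.2 to 60.7, 9.81 to 17.3 and 26.3 to 41.0 FPKM, cholangiocyte markers to 20.1 to 27.9, 17.6 to 32.4 and 30.2 to 38.1, and the 3 lymphocyte markers in the table to 0.857 to 2.48, 0.501 to 0.754 and 7.59 to 12.6.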
